A study of Mus musculus with 2 samples.

Results

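The cells described here are maturing gonadotrophs, taken from single-cell libraries of the SOX9iresGFP-positive fraction of the mouse pituitary at postnatal day 3. They were chosen by their own transcripts. A droplet barcode was kept if it had at least 1000 genes and a mitochondrial share of at most 10% of its unique molecular identifiers (UMIs, counts of single captured transcripts). Of these, the maturing gonadotrophs had *Cga* at 2000 CPM or more (CPM, counts-per-million, scaled by the total UMIs of a barcode or of summed barcodes), at least 2 UMIs of *Gnrhr* or at least 2 of *Lhb*, at most 1 UMI of *Pou1f1*, and at most 2 UMIs of *Col1a1* and *Col3a1* together. The rule found 279 of 13613 barcodes, 265 male and 14 female. They are compared with 591 barcodes, called precursors here, that also had *Cga* at 2000 CPM or more, at least 2 UMIs of *Neurod1*, and none of *Gnrhr* or *Lhb* (518 male and 73 female). The study sorted GFP-positive cells from Sox9iresGFP/+ mice at this age, 3 pituitaries pooled per sex, and sequenced 1 droplet library for each sex. All cells carried the heterozygous reporter allele, no animal was treated, and there was no group without the allele. The reporter is made from the *Sox9* locus. Cells that no longer made SOX9 protein could still be GFP-positive and were sorted beside the stem cells (SCs), while gonadotrophs that had lost the reporter were not sorted.

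Gonadotrophs make the gonadotrophins LH and FSH, each a dimer of the shared alpha subunit, encoded by *Cga*, with a beta subunit encoded by *Lhb* or *Fshb*. Pulses of hypothalamic GnRH act on the GnRH receptor (*Gnrhr*), which signals through Gq proteins, phospholipase C, inositol trisphosphate and protein kinase C, while activins and inhibins act on *Fshb*. In the pituitary, *Cga* is an early marker of both gonadotrophs and thyrotrophs, the nuclear receptor NR5A1 marks the gonadotroph lineage, and the beta subunits and granule proteins come late. *Neurod1*, which chose the precursors, encodes a basic helix-loop-helix (bHLH) factor of neuroendocrine differentiation.

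The upstream sequences of the genes that define this stage are shown first, since *Cga*, *Gnrhr* and *Lhb* chose the barcodes, *Fshb* had no UMI in any precursor, and *Nr0b1* had the largest difference of a transcription factor. Each is the 250 bases before the RefSeq start on GRCm38.p6, read 5′ to 3′ in the direction of the gene, and *Nr5a1* had no entry. Capitals mark matches on either strand to AGGTCA (the core of an NR5A1 site, in 14.0% of all 32851 promoters of the table), its longer form CAAGGTCA (1.33%, overlapping the core), CNCCCCCNC (EGR1, 17.0%), TAATCC (PITX, 6.25%), CAGCTG (an E-box, 13.0%) and TATAAA (12.4%). The windows are chr7:45420696-45420945 (plus strand) for *Lhb*, chr4:34893529-34893778 (plus) for *Cga*, chr5:86197902-86198151 (minus) for *Gnrhr*, chr2:107059652-107059901 (minus) for *Fshb* and chrX:86191525-86191774 (plus) for *Nr0b1*. GENCODE vM21 starts *Lhb* at 45420820, inside this window, and *Fshb* and *Nr0b1* within its last bases.
Lhb: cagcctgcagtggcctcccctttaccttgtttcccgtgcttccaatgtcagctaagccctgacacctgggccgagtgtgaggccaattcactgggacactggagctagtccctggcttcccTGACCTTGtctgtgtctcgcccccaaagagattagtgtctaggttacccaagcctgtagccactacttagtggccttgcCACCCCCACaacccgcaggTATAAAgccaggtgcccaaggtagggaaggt
Cga: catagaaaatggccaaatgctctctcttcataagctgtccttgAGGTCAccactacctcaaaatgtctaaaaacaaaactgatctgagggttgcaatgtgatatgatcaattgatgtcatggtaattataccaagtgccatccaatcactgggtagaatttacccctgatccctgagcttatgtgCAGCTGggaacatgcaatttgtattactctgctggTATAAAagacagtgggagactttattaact
Gnrhr: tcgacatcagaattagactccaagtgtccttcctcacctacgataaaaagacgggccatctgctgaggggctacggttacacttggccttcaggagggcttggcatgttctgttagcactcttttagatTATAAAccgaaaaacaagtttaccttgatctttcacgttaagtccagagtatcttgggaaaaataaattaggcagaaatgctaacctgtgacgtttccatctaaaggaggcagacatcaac
Fshb: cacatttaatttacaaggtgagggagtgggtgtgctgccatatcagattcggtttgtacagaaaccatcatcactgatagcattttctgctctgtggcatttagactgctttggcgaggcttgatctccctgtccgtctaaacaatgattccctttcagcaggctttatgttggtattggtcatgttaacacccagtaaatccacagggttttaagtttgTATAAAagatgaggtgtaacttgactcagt
Nr0b1: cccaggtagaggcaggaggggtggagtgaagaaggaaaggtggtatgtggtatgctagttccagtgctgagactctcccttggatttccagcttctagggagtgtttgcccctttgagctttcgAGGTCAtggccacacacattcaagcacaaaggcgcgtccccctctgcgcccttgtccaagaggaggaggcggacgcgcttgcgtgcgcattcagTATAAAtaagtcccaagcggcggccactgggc
The *Lhb* window holds the long NR5A1 motif on the minus strand, beginning 129 bases before the start, an EGR1 motif beginning 50 bases before it, and TATAAA at 31 bases. The *Cga* window has the NR5A1 core at 207 bases, an E-box at 65 and TATAAA at 30. In *Nr0b1* the core begins 126 bases before the start. Of these letters, the *Fshb* and *Gnrhr* windows hold TATAAA alone, at 30 and 121 bases, and none of the 5 windows holds TAATCC. A match describes the letters of the window and shows no binding.

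The kept barcodes held 103324792 (male) and 62682018 UMIs (female), with medians of 11108 and 9892 UMIs per barcode. The maturing gonadotrophs were deeper, with medians of 14706 (male) and 15779 UMIs (female), against 13617 and 14372 in the precursors. Of all barcode sequences, 19 occurred in both libraries, including that of 1 male maturing gonadotroph. Scrublet, which scores likely doublets, marked 35 of the male (13.2%) and 1 of the female (7.14%) maturing gonadotrophs, against 51 (9.85%) and 1 (1.37%) of the precursors. They were kept, since the methods name no doublet step. The reporter transcript eGFP was at 4.72 CPM in the male maturing gonadotrophs, against 2.68 CPM in the male precursors and 14.2 CPM over all male barcodes. No eGFP UMI was found in the 14 female ones, where 3 UMIs would be 13.2 CPM. That limit holds for every 0 below in the female maturing gonadotrophs. It is 2.84 CPM in the female precursors, and 0.674 and 0.422 CPM in the male maturing gonadotrophs and precursors. Limits and intervals cover counting error only.

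Maturing gonadotrophs made up 3.31% of the male barcodes (95% Clopper-Pearson interval 2.93 to 3.72) and 0.250% of the female barcodes (0.137 to 0.419). With 1 library per sex, made from pooled animals and a sort, this difference has no replicate check and no test was made. The precursors were 6.47% (5.94 to 7.03) and 1.30% (1.02 to 1.64). The male share was the higher one in both sets.

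*Cga* was at 18292 (male) and 27993 CPM (female) in the maturing gonadotrophs, against 9359.9 and 7841 CPM in the precursors, which passed the same *Cga* threshold. *Gnrhr* was at 446 CPM (427 to 466) and 290.2 CPM (224 to 369), and *Lhb* at 211 CPM (198 to 225) and 941 CPM (819 to 1076). These values chose the barcodes and are a description only. Single male barcodes had 0 to 45 UMIs of *Gnrhr* (median 6) and 0 to 136 of *Lhb*, with 188 of 265 at 0 *Lhb*. The 14 female barcodes had 2 to 14 UMIs of *Gnrhr* (median 3.5), and 3 of them carried all 214 *Lhb* UMIs, up to 167 in 1 barcode. Most maturing gonadotrophs were thus *Gnrhr*-positive without *Lhb*. *Gnrhr* with under 2 UMIs of *Lhb* was found in 203 male and 11 female barcodes, both genes at 2 or more in 51 and 3, and *Lhb* alone in 11 male barcodes. Just inside the threshold, 63 male and 3 female barcodes had 2 UMIs as the higher of the 2 genes. Just outside it, 99 and 8 had 1 UMI. For the background of free RNA, *Gnrhr* had a UMI in 1 of 671 male (0.149%) and none of 265 female barcodes with *Pou1f1* (limit 1.13%), whose median depths were 13855 and 12407 UMIs. *Lhb* had a UMI in 2 (0.298%) and 1 (0.377%) of them.

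**Figure D1:**
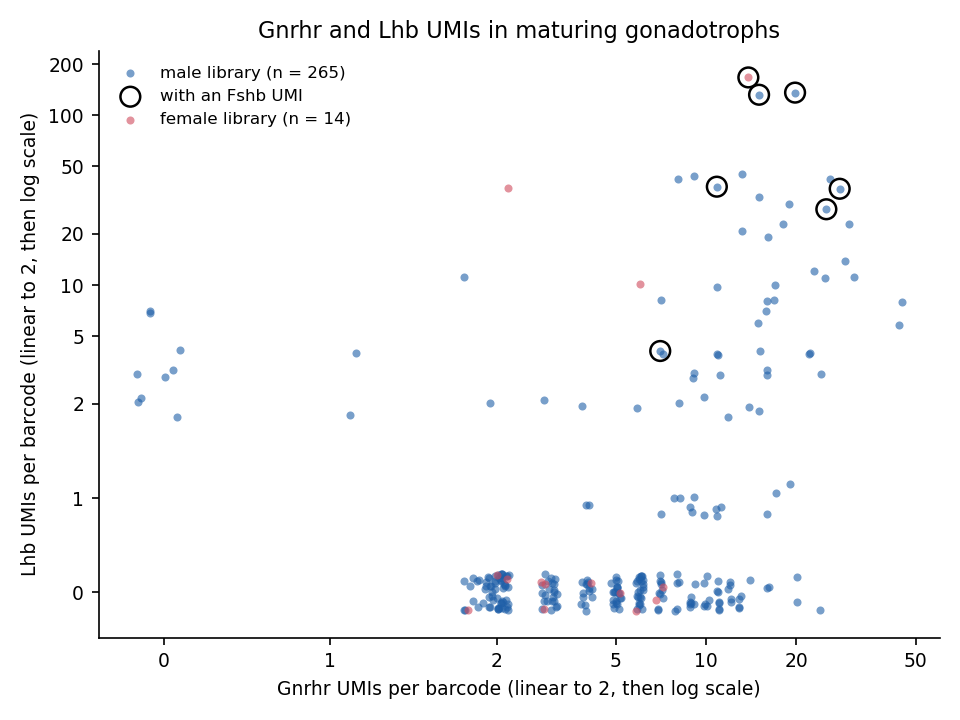
UMIs of Gnrhr (x axis) and Lhb (y axis) in each maturing gonadotroph, both axes linear to 2 and logarithmic above, with points jittered. Blue points are the 265 male and red points the 14 female barcodes, and black rings mark the 6 male and 1 female barcodes with an Fshb UMI, all of which have 4 or more Lhb UMIs.

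The 11 male barcodes with *Lhb* alone went against the label. Their median *Cga* was 23 UMIs (3402 CPM), against 260 UMIs (17384 CPM) in the 254 with *Gnrhr*. *Nr5a1* had a UMI in 2 of the 11 and *Foxl2* in 5. The SC factor *Sox2* had a UMI in 10 of them (408 CPM) and in 62 of the 254 (79.3 CPM), and the Notch target *Hes1* was at 898 and 97.8 CPM. Barcodes rich in *Sox2* were not confined to the 11. Of all 265 male maturing gonadotrophs, 13 had 10 or more *Sox2* UMIs, up to 12 with *Lhb* alone and up to 34 with *Gnrhr*. Leaving these 11 out changed no call among the genes named below.

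The markers of the label that the rule did not use were present. *Nr5a1* had at least 1 UMI in 159 of 265 male (60.0%) and 10 of 14 female (71.4%) maturing gonadotrophs. With every barcode drawn down to 5000 UMIs, which left out 13 male maturing gonadotrophs and 59 male precursors, the shares were 27.0% (21.6 to 32.9) and 21.4% (4.66 to 50.8), against 10.5% (7.81 to 13.6) and 8.22% (3.08 to 17.0) in the precursors. *Nhlh2*, a bHLH factor needed for normal puberty, had a UMI in 20.6% (15.8 to 26.2) and 35.7% (12.8 to 64.9) at that depth, against 10.7% and 2.74%. *Foxl2*, a forkhead factor that acts on *Fshb*, had a UMI in 67.5% and 64.3% of the maturing gonadotrophs and in 69.1% and 74.0% of the precursors, whose intervals overlap. In *Pou1f1*-positive barcodes the unthinned shares of *Nr5a1* were 3.73% (male) and 0.755% (female).

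Markers of other cells were measured over the same barcodes. The 8 POU1F1 lineage genes, *Pou1f1* of the rule among them, summed to 52.6 CPM in male and 13.2 CPM in female maturing gonadotrophs, against 493 and 128 CPM in the precursors, and 147 of 265 and 12 of 14 barcodes had none of their UMIs. *Pomc*, the precursor of ACTH, had a UMI in 223 of 265 male barcodes (median 2), with 5 barcodes at 10 or more and up to 1338. In the female library 1 of 14 had 445 UMIs. The share with a *Pomc* UMI in the collagen-positive barcodes, which should lack it, was 74.2% (male) and 21.9% (female), against 84.2% and 71.4% in the maturing gonadotrophs, at median depths of 8426 and 8259 UMIs. The 9 mesenchymal genes summed to 8.76 CPM in male maturing gonadotrophs, with none in female ones. The 6 endothelial, 8 blood and immune and 5 posterior lobe markers summed to 2.25, 0.674 and 3.15 CPM (male) and 0, 0 and 4.40 CPM (female), and none of these genes had enough UMIs to test. Whether the *Pomc*-rich and other marked barcodes had a part in the differences below was not tested.

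To ask which genes moved between the stages, UMIs were summed per library and set, and the maturing gonadotrophs were compared with the precursors of the same library in edgeR. The sums of the 2 libraries are the only replicates, so that the adjusted p-values rest on 1 residual degree of freedom and on the spread shared over genes. None is given for the genes of the rule. Of 10956 genes tested, 464 (4.24%) were higher and 357 (3.26%) lower in the maturing gonadotrophs, 7.49% in all, and 1835 had an unadjusted p under 0.05. The shares of 4.24% and 3.26% are the background for every list count below. Of the 821 genes called, 812 had a UMI in the female sums, and 771 of these moved the same way in both libraries (94.95%). The share was 61.0% of the 10933 genes tested with a female UMI. The test that called the genes used both libraries, so their agreement is partly set by the choice. DESeq2 called 90 higher (0.821%) and 42 lower (0.383%), all of them among the 821. The median log2 difference over all genes tested was -2.73e-05.

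*Fshb* had no UMI in 518 male and 73 female precursors. It was at 68.1 CPM (60.6 to 76.2, male) and 405 CPM (326 to 496, female) in the maturing gonadotrophs, at least 161-fold and 142-fold above the level that 3 UMIs would give in the precursors of each library. All of it came from 6 male barcodes (303 UMIs, from 3 to 128 each) and 1 female barcode (92 UMIs). No UMI was found in the other 259 and 13. The edgeR test called it (adjusted p = 7.45e-17), while DESeq2 gave an adjusted p of 0.23. *Tshb*, the thyrotroph beta subunit, was at 20.7 CPM in the male maturing gonadotrophs, where 33 barcodes had a UMI and 3 held 47.8% of the UMIs, and at 3.94 CPM in the male precursors. In the female library no UMI was found, against 4.73 CPM in the precursors. It was called higher (log2 difference 2.06 ± 0.43 SE, adjusted p = 0.0013), on the male library alone, and passed neither with DESeq2 (adjusted p = 1) nor with precursors chosen without *Neurod1* (0.194). *Gpha2*, an alpha subunit of another glycoprotein hormone, was at 23.1 and 6.90 CPM in the male sets and absent from the female maturing gonadotrophs (log2 1.61 ± 0.39, adjusted p = 0.0051). It passed neither with DESeq2 (adjusted p = 1), nor without the library term (0.0764), nor with precursors chosen without *Neurod1*, where the log2 difference was 0.64 (0.360). *Fshb*, *Tshb* and *Gpha2* were the 3 hormone subunit genes tested, and *Cga* and *Lhb* belong to the rule.

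Of 11 gonadotroph transcription factors tested, 4 were higher, 3 lower and 4 did not pass the test (median log2 -0.14). DESeq2 called 3 higher and 1 lower. *Nr0b1*, which encodes DAX1, a nuclear receptor that binds NR5A1, was almost absent from the precursors, with 2 UMIs in 518 male and none in 73 female barcodes. In the maturing gonadotrophs it was at 46.5 CPM (81 barcodes) and 30.8 CPM (3 barcodes), a log2 difference of 7.25 ± 0.53 (adjusted p = 3.41e-12). *Nr5a1* rose from 21.0 to 64.5 CPM (male) and from 11.4 to 61.6 CPM (female), a log2 difference of 1.71 ± 0.25 (adjusted p = 6.97e-06). *Nhlh2* went from 24.8 to 61.6 and from 8.52 to 123 CPM (1.76 ± 0.29, adjusted p = 4.87e-05), and *Gata2*, which acts in gonadotrophs and thyrotrophs, from 17.3 to 45.4 and from 5.68 to 17.6 CPM (1.36 ± 0.27, adjusted p = 7.16e-04). In each of these both maturing sums lay above both precursor sums, for *Gata2* only just (17.6 CPM, 4 UMIs, against 17.3 CPM). They were picked as called higher, so this order adds no support. Its share over all genes was not counted.

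*Isl1* and *Lhx3*, homeodomain factors of early pituitary cells, were called lower. *Isl1* fell from 459 to 206 CPM (male) and from 452 to 145 CPM (female), a log2 difference of -1.33 ± 0.13 (adjusted p = 4.01e-09). *Lhx3* was lower by the test (log2 -0.56, adjusted p = 0.044), but was at 96.6 against 171 CPM (male) and at 185 against 151 CPM (female), opposite directions. *Foxl2* (log2 -0.29 ± 0.13), *Egr1* (-0.19 ± 0.10), which carries the GnRH signal to *Lhb*, and *Pitx1* (-0.14 ± 0.12) did not pass the test.

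**Figure D2:**
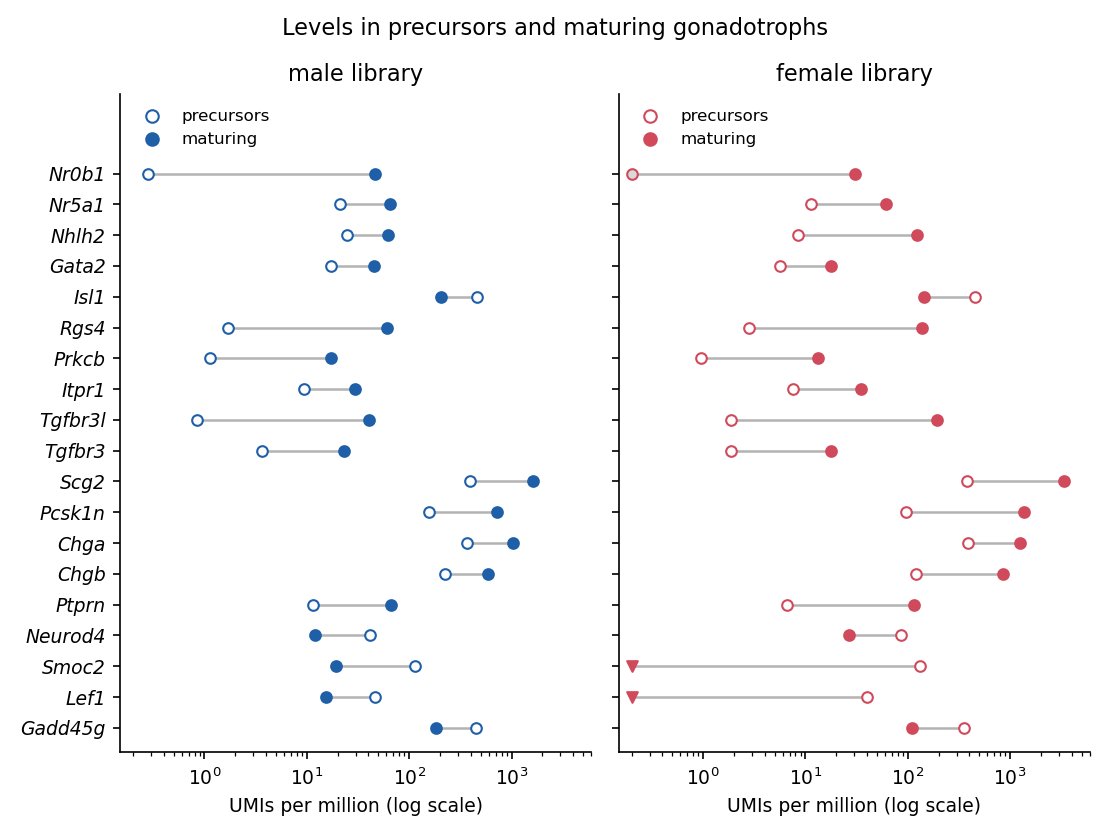
CPM (log scale) of 19 genes in the precursors (open circles) and maturing gonadotrophs (filled circles) of the male (left) and female library (right), with no error shown. Sets without a UMI are drawn at the left edge at 0.2, as a triangle for maturing gonadotrophs (Smoc2 and Lef1, female) and a grey circle for precursors (Nr0b1, female). In both libraries 14 genes are higher in the maturing gonadotrophs, and Isl1 and the 4 from Neurod4 to Gadd45g are lower.

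Downstream of the GnRH receptor, 3 of 21 genes tested were higher and none lower (median log2 0.16), beside a background of 4.24% called higher. DESeq2 called 1 of the 21, *Rgs4*. *Rgs4*, a regulator of G-protein signalling that shortens Gq signals, was at 61.1 CPM in 76 male and 136 CPM in 4 female barcodes, against 1.69 and 2.84 CPM in the precursors (5.20 ± 0.32, adjusted p = 8.89e-14). *Prkcb*, a protein kinase C, rose from 1.13 to 17.1 and from 0.947 to 13.2 CPM (3.81 ± 0.56, adjusted p = 8.45e-06), the female values resting on 1 and 3 UMIs. *Itpr1*, the inositol trisphosphate receptor of the endoplasmic reticulum, rose from 9.29 to 29.9 and from 7.57 to 35.2 CPM (adjusted p = 2.39e-04). *Gnaq*, the Gq subunit itself, was at 88.5 and 96.7 CPM against 71.3 and 60.6 CPM and did not pass (adjusted p = 0.38).

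Of 15 immediate-early genes, which respond to stimulation and also to dissociation of tissue, 1 was higher and 4 were lower (median log2 -0.23). *Junb*, an AP-1 subunit, rose from 291 to 583 CPM (male) and from 277 to 435 CPM (female, adjusted p = 6.52e-06). *Btg2*, an antiproliferative gene, fell from 1550.3 to 1062 and from 2082 to 1288 CPM (adjusted p = 2.30e-06). *Fos* (log2 -0.39), *Atf3* (-0.62) and *Ier2* (-0.37) were lower by smaller amounts, with adjusted p-values of 0.0055, 0.016 and 0.02. DESeq2 called only *Junb* higher and *Btg2* lower, while *Fos*, *Atf3* and *Ier2* did not pass it (adjusted p = 0.544, 0.979 and 0.799). *Fos* and *Ier2* were also lost without the library term (0.123 and 0.164), and *Atf3* after thinning (0.318).

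In the activin, inhibin and follistatin system, 2 of 13 genes were higher and none lower (median log2 0.09), and both encode co-receptors that bind inhibin. DESeq2 called 1 of the 13. *Tgfbr3l*, the co-receptor for inhibin B, was at 40.2 CPM in 65 male barcodes and 193 CPM in 2 female barcodes, 1 of which held 41 of the 44 UMIs. In the precursors it was at 0.845 and 1.89 CPM (5.84 ± 0.37, adjusted p = 1.29e-13). *Tgfbr3*, which encodes betaglycan, rose from 3.66 to 22.9 and from 1.89 to 17.6 CPM (2.64 ± 0.40, adjusted p = 1.24e-05). The activin receptors and SMAD genes tested did not pass, nor did *Inhbb* (log2 0.40) and *Inha* (0.39).

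The genes of the secretory granule were higher as a group. Of 17 genes of granule cargo and peptide processing tested, 13 were higher, none was lower and the median log2 difference was 1.24, beside a background of 4.24% of genes called higher. DESeq2 called 5 of the 17. *Scg2* (secretogranin II) rose from 391 to 1631 CPM (male) and from 381 to 3342 CPM (female), a log2 difference of 2.51 ± 0.14 (adjusted p = 4.21e-15). *Pcsk1n* (proSAAS) rose from 157 to 718 and from 95.6 to 1372 CPM (2.77 ± 0.18, adjusted p = 4.18e-13). The chromogranins *Chga*, from 369.7 to 1030.3 and from 387 to 1253 CPM, and *Chgb*, from 223 to 587 and from 120.2 to 853 CPM, rose as well (log2 1.53 and 1.87). *Ptprn*, a receptor-like protein of the granule membrane, rose from 11.4 to 66.7 and from 6.63 to 114 CPM, and *Scg5*, a chaperone of prohormone convertase, from 221 to 405 and from 194 to 756 CPM. The adjusted p-values of these 4 were 1.08e-12, 8.86e-10, 3.33e-09 and 2.68e-07. The other 7 called higher included the prohormone convertase *Pcsk1*, from 1.69 to 8.09 and from 1.89 to 39.6 CPM (adjusted p = 0.0032), and *Cpe*, the carboxypeptidase that trims peptides after it (log2 0.75, adjusted p = 9.10e-04). All 9 *Pcsk1* UMIs of the female maturing gonadotrophs lay in 1 barcode. *Pcsk1* and *Cpe* passed neither with DESeq2 (adjusted p = 0.075 and 0.0892) nor without the library term (0.0659 and 0.151). *Resp18*, an endocrine granule protein, rose from 49.99 to 106 and from 10.4 to 413 CPM (adjusted p = 6.70e-05). A single barcode held 72 of its 94 female UMIs, and another held 115 of its 470 male UMIs. *Resp18* passed neither with DESeq2 (adjusted p = 0.955) nor without the library term (0.0506). In the female library, 3 barcodes held 79.2% of the *Scg2* UMIs, while all 14 had at least 4.

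Other parts of the secretory pathway were counted in the same way. Of 28 genes of the exocytosis machinery, 8 were higher and 2 lower (median log2 0.36), while DESeq2 called 1 higher and 1 lower. The small GTPase *Rab3b* rose from 92.9 to 211 and from 95.6 to 242 CPM (adjusted p = 6.12e-07). Among the synaptotagmins, which sense calcium, *Syt7* (log2 1.28, adjusted p = 6.12e-05) and *Syt4* (1.10, adjusted p = 1.02e-04) were higher, and *Syt1* fell from 236 to 108 and from 328 to 180.3 CPM (adjusted p = 7.83e-07). The synapsin *Syn2* was higher by 0.54 (adjusted p = 0.029). Of 25 genes of the endoplasmic reticulum, 3 were higher, *Ssr4* (0.40), *P4hb* (0.52) and *Sec61b* (0.32), with adjusted p-values of 0.022, 0.032 and 0.041, and the median was 0.01. DESeq2 called none of the 25. Of 18 voltage-gated channel genes, 3 were higher and 1 lower (median 0.46), while DESeq2 called 1 higher and none lower. The sodium channel *Scn3a* rose from 31.8 to 128 and from 12.3 to 114 CPM (2.18 ± 0.23, adjusted p = 1.58e-08). The potassium channel *Kcnb2* (0.98, adjusted p = 0.0062) and the calcium channel subunit *Cacnb2* (1.11, adjusted p = 0.047) were higher, and *Kcnmb2*, a subunit of calcium-activated potassium channels, was lower (-0.96, adjusted p = 0.0014).

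Of 11 steroid and nuclear receptor genes, 2 were higher and 1 lower (median log2 0.06), while DESeq2 called none higher and 1 lower. *Esr1*, the estrogen receptor alpha, was at 14.6 CPM in the male maturing gonadotrophs against 1.69 CPM, and had 1 UMI in the female ones (3.10 ± 0.60, adjusted p = 4.23e-04). *Rxrg*, a retinoid X receptor known from thyrotrophs, had 1 UMI in 265 male and none in 14 female maturing gonadotrophs, against 15.5 and 11.4 CPM in the precursors (-5.97 ± 0.75, adjusted p = 6.38e-07). It belongs to the POU1F1 lineage list too, which the limit on *Pou1f1* touches in the maturing gonadotrophs only. With the precursors held to the same limits, it had too few UMIs to test. Of 5 receptors for hypothalamic and circulating factors tested, the prolactin receptor *Prlr* was higher (12.3 to 28.1 and 4.73 to 22.0 CPM, adjusted p = 0.0092).

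The limits on *Pou1f1* and the collagens bear on further genes. Of the 5 POU1F1 lineage genes tested, *Gh*, *Prl*, *Rxrg* and *Dio2* were lower and *Tshb* higher. *Gh*, growth hormone, was at 26.3 and 8.79 CPM against 303 and 35.0 CPM, with 59.6% of the UMIs of the male precursors in 3 barcodes, and *Prl*, prolactin, at 1.12 against 25.3 CPM in the male library. The 3 mesenchymal genes tested were lower, among them *Dcn* (1.35 against 52.0 CPM, male). When the 67 male and 8 female precursors over these limits were left out, *Tshb* was higher and *Gh* lower, and *Prl*, *Rxrg*, *Dio2* and the 3 mesenchymal genes had too few UMIs left to test. Of 3 POMC lineage genes, *Oacyl* was lower (0.674 against 9.29 and 0 against 7.57 CPM, adjusted p = 0.0011).

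Of 14 genes of neuroendocrine precursors tested, none was higher and 7 were lower, with a median log2 difference of -0.88, beside a background of 3.26% called lower. DESeq2 called 3. *Neurod4* fell from 41.8 to 12.1 CPM (male) and from 85.2 to 26.4 CPM (female), a log2 difference of -1.81 ± 0.26 (adjusted p = 5.99e-06). The Notch pathway genes *Mfng* (a fringe glycosyltransferase, log2 -1.21) and *Dll3* (a ligand, -1.44) and the bHLH gene *Hes6* (-0.56) fell, with adjusted p-values of 5.19e-06, 1.34e-04 and 3.69e-04. *Nhlh1* (-1.42, adjusted p = 0.0038) fell while its relative *Nhlh2* rose, and the zinc finger factor *Insm1* fell by 0.66 on the log2 scale (adjusted p = 0.0047). Since *Neurod1* chose the precursors, genes that accompany it could be set by the rule. An alternative set of precursors had *Cga*, no *Gnrhr* or *Lhb*, and the limits on *Pou1f1* and the collagens, with no demand on *Neurod1*. Against it, 7 of the list were again lower and none higher, although *Nhlh1* no longer passed. This set still includes the *Neurod1*-positive precursors within those limits, so it cannot decide how much the rule set these differences.

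Genes of differentiating SCs were lower too, 8 of 13, with none higher and a median log2 difference of -0.98. DESeq2 called 3 of them, *Gadd45g*, *Sox4* and *Mycl*. The study described *Lef1*, *Shh*, *Cdkn1a* and *Gadd45g* in differentiating SC clusters of these same libraries. The list was chosen with such results known, so its count is partly set by the choice and is no independent support. *Smoc2*, a secreted matrix protein, was at 19.1 CPM in the male maturing gonadotrophs and at 0 in the female, against 114 and 131 CPM in the precursors (-2.81 ± 0.25, adjusted p = 8.86e-10). *Lef1*, the transcription factor of the WNT pathway, went from 46.8 to 15.5 and from 39.8 CPM to 0 (adjusted p = 4.73e-05). *Gadd45g*, a growth arrest gene, fell from 450.1 to 182 and from 356 to 109.9 CPM (-1.44 ± 0.13, adjusted p = 1.44e-09). *Sox4* (-0.98), *Mycl* (-1.58), *Sox11* (-0.70), *Pou3f4* (-1.08) and the hedgehog ligand *Shh* (-3.50) were lower, with adjusted p-values of 4.83e-06, 8.56e-06, 6.76e-04, 0.0053 and 0.0054. Of 15 SC genes, 2 were higher and none lower (median 0.41). *Hes1* was at 113 against 40.0 CPM (male) and 87.9 against 27.4 CPM (female), where 1 barcode held all 20 UMIs. *Aldh1a2*, a retinaldehyde dehydrogenase of anterior lobe SCs, was at 102 against 41.5 CPM in the male library. Without the barcodes marked by Scrublet, *Hes1* had a log2 difference of 1.45 (adjusted p = 0.0949), against 1.49 with them, and *Aldh1a2* one of 0.56 (adjusted p = 0.356), against 1.05. *Sox2* (log2 -0.28) and *Sox9* (0.49) did not pass.

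**Figure D3:**
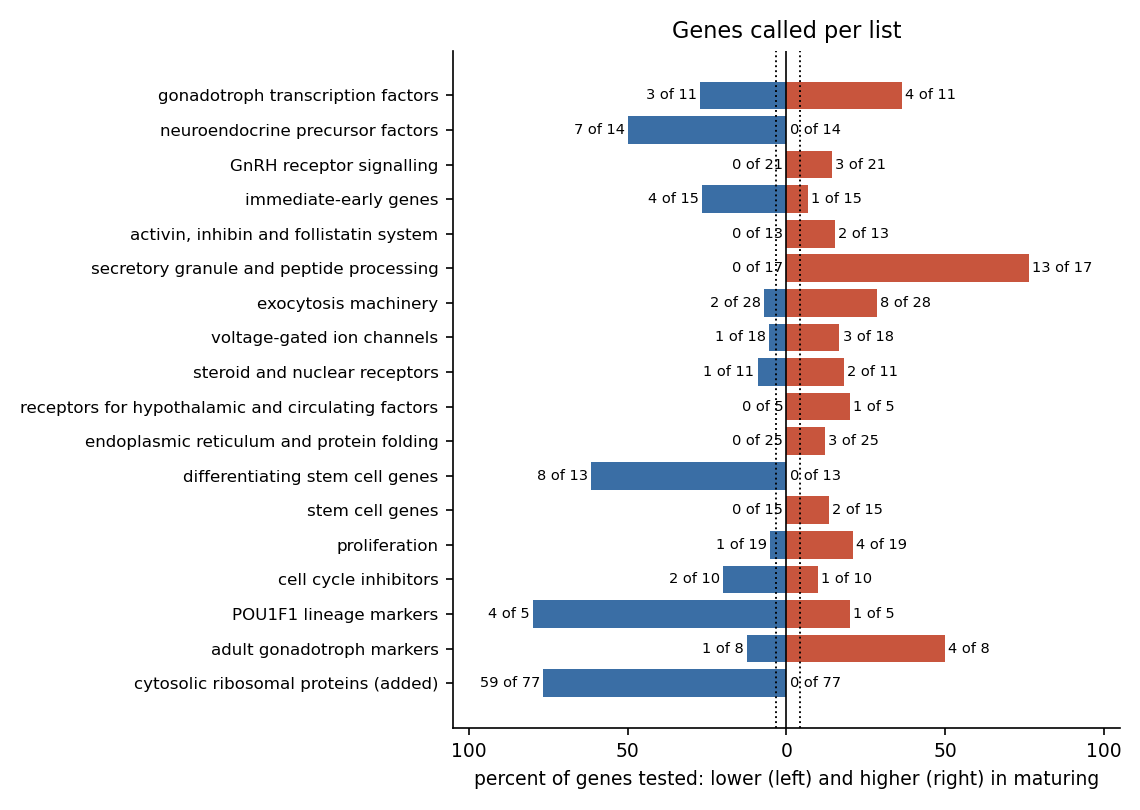
Percent of the genes tested in each list that edgeR called higher (red, right) or lower (blue, left) in maturing gonadotrophs, with counts beside the bars. Dotted lines mark the shares over all 10956 genes, 4.24% higher and 3.26% lower. The secretory granule list has the highest share called higher among lists of at least 10 genes tested (13 of 17), and the differentiating SC, precursor and ribosomal lists are lower.

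Of 19 proliferation genes, 4 were higher and 1 lower. *Mki67* was at 31.2 against 6.48 CPM in the male library, with 57.6% of its UMIs in 3 barcodes, and at 0 against 13.3 CPM in the female. The mitotic genes *Cdk1*, *Ccna2* and *Ube2c* had the same pattern, at 26.3, 17.3 and 44.3 CPM against 7.46, 4.93 and 9.72 CPM (male), and with no UMI in the female maturing gonadotrophs, and *Ube2c* turned lower with DESeq2 (log2 -1.61). *Mcm2*, a replication licensing gene, was lower in both (9.44 against 23.8 and 0 against 31.2 CPM, adjusted p = 0.0023). After thinning, 2 or more of 8 mitotic genes had a UMI in 12 of 252 male maturing gonadotrophs (4.76%, 2.48 to 8.17), in 8 of 459 male precursors (1.74%, 0.755 to 3.41) and in 12.8% of all male barcodes. In the female library the counts were 0 of 14, which allows a share of up to 23.2% (the upper Clopper-Pearson bound), and 1 of 73 (1.37%). Without the barcodes marked by Scrublet, the log2 differences of *Mki67*, *Cdk1*, *Ccna2* and *Ube2c* were as large (1.55 to 1.77, against 1.35 to 1.71 with them), but their adjusted p-values of 0.0638 to 0.134 did not pass. DESeq2 called no proliferation gene. Of 10 cell cycle inhibitors, *Cdkn1b*, which encodes p27, rose from 131 to 312 and from 113 to 171 CPM (1.04 ± 0.15, adjusted p = 7.22e-06). *Gadd45a* fell from 155 to 47.9 and from 125 to 30.8 CPM (adjusted p = 1.32e-08), beside *Gadd45g*.

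Of 8 markers of adult gonadotrophs tested, 4 were higher and 1 lower, beside backgrounds of 4.24% and 3.26%. *Tgfbr3l* and the protocadherin *Pcdh7* (log2 0.98, adjusted p = 0.045) are among those higher. *Pcdh7* passed neither after thinning (0.225) nor with the same limits for precursors (0.137). DESeq2 called 1 of the list higher and 1 lower, and 1 was higher after thinning. *Spp1*, osteopontin, was at 11.9 against 1.27 CPM in the male library, with 83.0% of the UMIs in 3 barcodes, and had none in the female. The metallothionein *Mt3* went from 118 to 184 and from 224 to 312 CPM (adjusted p = 0.0081), but passed neither after thinning (0.0843) nor with DESeq2 (0.697). The neuropeptide gene *Cartpt* was lower, at 14.6 against 42.4 and 22.0 against 151 CPM (-1.82 ± 0.25, adjusted p = 3.70e-06).

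Outside the lists, the genes with the largest differences were taken by rule, 12 in each direction. Beside *Fshb*, *Nr0b1*, *Tgfbr3l* and *Rgs4*, those higher were *Svep1*, *Sult5a1*, *Tmem52*, *Clec2l*, *Serpinb1a*, *Pde8a*, *Fam159b* and *Slurp2*, with log2 differences from 3.71 (*Slurp2*) to 4.90 (*Svep1*). *Clec2l*, a C-type lectin, was the most widely detected of these, in 131 of 265 male and 3 of 14 female barcodes. It was at 67.6 and 39.6 CPM against 3.10 and 1.89 CPM in the precursors (4.38 ± 0.32, adjusted p = 4.90e-12). *Pde8a*, a phosphodiesterase of cyclic AMP, had a UMI in 86 male barcodes (29.4 against 1.83 CPM) and 3 female ones. *Svep1*, an extracellular matrix protein, had one in 76 male barcodes and 1 female barcode, and *Fam159b* had no UMI in either female set, so that its direction there is not known. Those lower were *Rxrg*, *A730046J19Rik*, *Cnpy1*, *Gh*, *Krt17*, *Pkib*, *Smoc2*, *Mybpc1*, *Dusp4*, *Rprm*, *Kit* and *Miat*. *Rprm*, a p53 target of cell cycle arrest, was the most abundant of them beside *Gh*, falling from 275 to 61.1 and from 305 to 35.2 CPM (-2.35 ± 0.17, adjusted p = 1.63e-12). *Mybpc1*, a myosin-binding protein, went from 83.1 to 18.6 and from 114 to 4.40 CPM, and the receptor tyrosine kinase *Kit* from 36.3 to 6.52 and from 29.3 to 17.6 CPM. With DESeq2, *Fshb* and *Fam159b* of those higher and *Cnpy1*, *Pkib*, *Smoc2*, *Dusp4*, *Kit* and *Miat* of those lower did not pass. A list added after the values were seen, the cytosolic ribosomal proteins, had 59 of 77 genes lower and none higher (7 lower by DESeq2), with a small median log2 difference of -0.36. They summed to 158501 (male) and 163881 CPM (female) in the maturing gonadotrophs, against 193921 and 206599 CPM in the precursors.

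Within the maturing gonadotrophs, the levels were ordered by class. The classes come from *Gnrhr* and *Lhb*, so the values are a description. In the male library *Nr5a1* was at 21.0 CPM in the precursors, 34.8 CPM in the 99 barcodes with 1 UMI of *Gnrhr* or *Lhb*, 57.2 CPM in the 203 with *Gnrhr* only and 88.1 CPM (71.0 to 108) in the 62 with *Lhb*. *Nr0b1* was at 0.282, 4.53, 26.4 and 112 CPM over the same classes. *Clec2l* had already reached 64.9 CPM with *Gnrhr* only and was at 76.6 CPM with *Lhb*, whose intervals overlap, and *Scn3a* was at 126 and 135 CPM. *Rgs4* (19.1 and 198 CPM), *Tgfbr3l* (9.39 and 141 CPM) and *Svep1* (15.3 and 97.7 CPM) were instead high mainly in the *Lhb* class. *Scg2* went over the 4 classes from 391 to 680, 1182 and 3098 CPM, *Chga* from 370 to 515, 686 and 2155 CPM, and *Pcsk1n* from 157 to 221, 393 and 1779 CPM. The precursor genes ran the other way, *Smoc2* from 114 to 29.5, 23.8 and 3.83 CPM and *Neurod4* from 41.8 to 19.6, 14.7 and 3.83 CPM. *Neurod1*, which did not choose the maturing gonadotrophs, was at 840 CPM with *Gnrhr* only and 406 CPM with *Lhb*. *Foxl2* was level over the first 3 classes (266, 230 and 245 CPM) and at 155 CPM (132 to 181) with *Lhb*. All of the *Fshb* UMIs of the maturing gonadotrophs lay in the *Lhb* class, and 1 was found in the male barcodes with 1 UMI of *Gnrhr* or *Lhb*. The male *Lhb* class also held barcodes with 364, 917 and 1338 *Pomc* UMIs, and the class with *Gnrhr* only held one with 868. Their part in the levels above, granule genes included, was not tested.

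In the female library the *Lhb* class was 3 barcodes, with *Scg2* at 11622 CPM, *Pcsk1n* at 5328 CPM and *Tgfbr3l* at 849 CPM, against 900 CPM, 205 CPM and 0 in the 11 with *Gnrhr* only. The 3 included the *Pomc*-rich female barcode, with 445 *Pomc* UMIs. *Nr5a1* was at 38.6 CPM (4.68 to 139) in the 3 and 68.3 CPM (35.3 to 119) in the 11, whose intervals overlap.

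**Figure D4:**
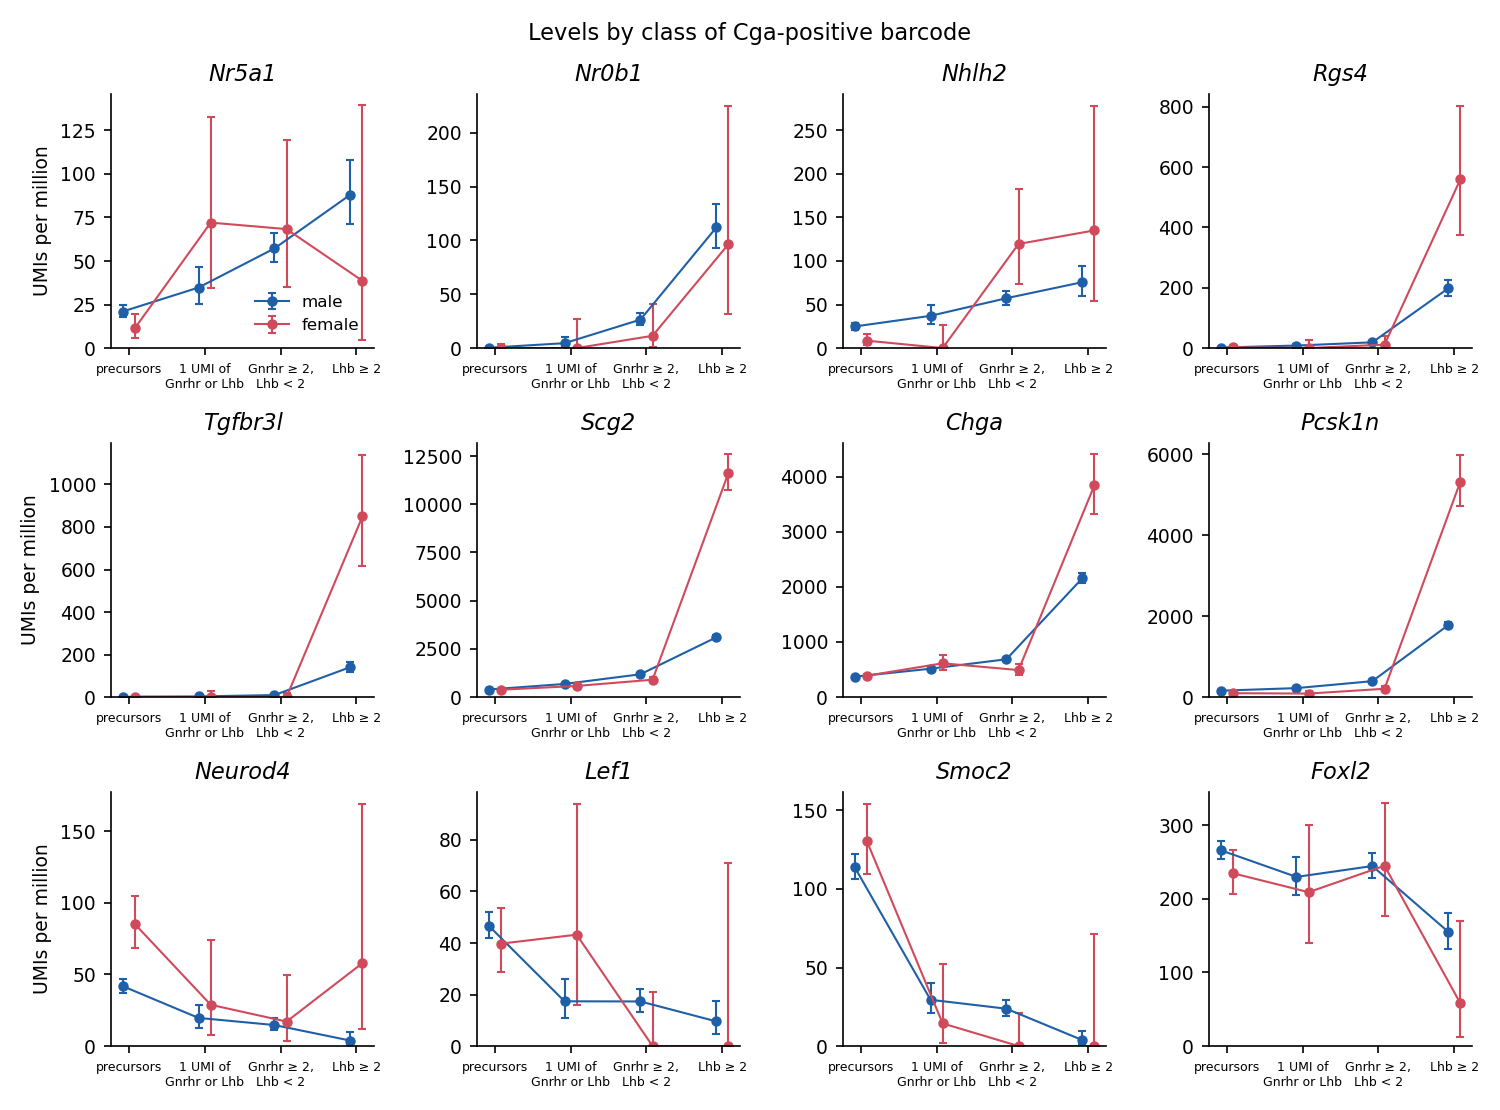
Levels in CPM (y axes, each gene on its own scale from 0) of 12 genes in the precursors, in barcodes with 1 UMI of Gnrhr or Lhb, in maturing gonadotrophs with Gnrhr only and in those with Lhb, for the male (blue) and female library (red). Bars are exact Poisson 95% intervals of the summed counts. In the male library Nr0b1, Rgs4 and Tgfbr3l are near 0 in the precursors and highest with Lhb (112, 198 and 141 CPM), and the female Lhb class rests on 3 barcodes.

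Male and female maturing gonadotrophs were set side by side with no test, since each sex is 1 library. Of 8448 genes with at least 50 UMIs, 8 (0.0947%) had the whole interval of the ratio above 2-fold in the male direction and 9 (0.107%) in the female. *Xist* and the Y-linked *Eif2s3y* and *Ddx3y* are among them and followed the labelled sex. *Cdkn1c*, an imprinted inhibitor of cyclin-dependent kinases, was the most abundant, at 2342 CPM (male) and 888 CPM (female, ratio 2.64, 2.25 to 3.10), with a UMI in 259 of 265 and 14 of 14. In the precursors it was at 1495 and 1118 CPM. *Rbpms*, an RNA-binding protein, was at 236 and 66.0 CPM (ratio 3.58, 2.04 to 6.80) and *Stim2*, a calcium sensor of the endoplasmic reticulum, at 38.4 CPM and 0. *Hist1h2ap*, *Hist1h1b* and *Ube2c*, genes of dividing cells, were higher in the male too, with 24 male barcodes and no female one carrying *Ube2c*. In the female direction stood *Lhb* (ratio 0.225, 0.184 to 0.275), *Fshb* (0.168, 0.122 to 0.234), *Tgfbr3l* (0.208), *Resp18* (0.255), *Ebf1* (0.176), *AY036118* (0.246) and *Caly* (0.198). *Lhb*, counted among the 9, helped to choose the barcodes, so its ratio is a description of those chosen only. The female *Lhb*, *Fshb* and *Tgfbr3l* UMIs came from 3, 1 and 2 barcodes, and barcodes of 1 library are not independent animals, so that these ratios describe few cells. *AY036118* overlaps ribosomal RNA repeats and may count reads of those.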

How the data were processed

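Barcodes of 2 droplet libraries (10x Genomics) were analysed. The authors ran Cell Ranger 3.0.2 on mm10 with eGFP added and deposited UMI counts per gene and barcode as whole numbers, without normalization, and the submitters' processing notes name R 3.6.0 and Seurat (3 and 4). The deposited counts held 10569 male and 5796 female barcodes, of which 8009 and 5604 were kept. The study's own filters (50 genes, a mitochondrial share within 3 SD of the library mean), were an alternative. Members and gene lists were chosen with earlier results of these data known.

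UMIs were summed per library and set. Genes with at least 50 UMIs over the 4 sums were tested in edgeR 4.0.16 (quasi-likelihood, TMM factors, terms for library and set, Benjamini-Hochberg over all genes), called at an adjusted p under 0.05. DESeq2 1.42.0 (Wald test) was an alternative. With library as a term, the p-values measure how far the set difference varies between the 2 libraries. They rest on 1 residual degree of freedom and mostly on the spread shared over genes (prior degrees of freedom 31.86). On simulated counts (10963 genes), the test recovered 82.0% of 2-fold and 98.0% of 3-fold rises, and 56.0% and 78.0% of falls by the same factors, with 18 false calls. The simulation used 1 dispersion for all genes, with no library difference and no gene carried by few barcodes. Recovery in the real counts may be lower, with more false calls. Levels (CPM) have exact Poisson and shares exact Clopper-Pearson 95% intervals. Barcodes were thinned to 5000 UMIs (seed 1). Scrublet (scanpy 1.11.5) marked the top 0.8% per 1000 barcodes. Strand is not stated for the counting. Some genes counted in the lists are not reported here. Genes named are the rule's genes, up to 6 per list by p and others whose role is explained, the 12 largest called differences each way with at least 100 UMIs and the same direction in both libraries, and 8 each way between sexes by the bound nearest 1. *Fam159b*, without a female UMI, met the demand on direction only through a small count added to each sum. Promoters and positions are from RefSeq (GRCm38.p6) and GENCODE vM21 (mm10).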

Additional observations from a re-analysis of the deposited data

Results flagged for a closer look

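Of the genes called between maturing gonadotrophs and precursors and named here, *Lhx3*, *Aldh1a2*, *Mki67*, *Cdk1* and *Ube2c* had at least 10 UMIs in each library and opposite directions in the 2 libraries. The log2 difference of *Lhx3* was -0.82 (male) and 0.31 (female), that of *Aldh1a2* 1.30 and -0.061, that of *Mki67* 2.26 and -2.64, that of *Cdk1* 1.81 and -2.43 and that of *Ube2c* 2.18 and -4.12. In the female maturing gonadotrophs *Mki67*, *Cdk1* and *Ube2c* had no UMI. The difference between the libraries was not tested.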

How the results depend on the processing

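Under 14 other settings of the test, the 96 genes followed kept their direction wherever they could be tested, except *Ube2c* with DESeq2 (log2 -1.61). DESeq2's Wald test called 90 genes higher and 42 lower in place of 464 and 357, and 52 of the 92 called genes named here kept their direction but did not pass it (*Spp1* got no adjusted p). Without the library term (no replicate block) 301 were higher and 171 lower, and 23 named calls were lost. After thinning 277 were higher. No paired analysis by replicate number was possible because each group is 1 library. The alternatives without Fshb- or Tshb-positive barcodes, with members chosen by *Gnrhr* alone and with the same limits for precursors were added after the data were seen, and left 431, 464, 514 and 468 genes higher. Without Scrublet-marked barcodes *Lhx3*, *Insm1*, *Cacnb2*, *P4hb*, *Sec61b*, *Hes1*, *Aldh1a2*, *Mki67*, *Cdk1*, *Ccna2*, *Ube2c* and *Dio2* no longer passed (adjusted p from 0.0553 to 0.356). Of their log2 differences, that of *Aldh1a2* shrank most, from 1.05 to 0.56.

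In single libraries the direction turned for 9 genes, with log2 differences of -1.24 to 2.37 (*Tshb*), -0.11 to 1.74 (*Gpha2*), -0.82 to 0.31 (*Lhx3*), -0.061 to 1.30 (*Aldh1a2*), -2.64 to 2.26 (*Mki67*), -2.43 to 1.81 (*Cdk1*), -1.87 to 1.80 (*Ccna2*), -4.12 to 2.18 (*Ube2c*) and -4.36 to 3.80 (*Prl*). The female side of *Gpha2* and *Prl* rests on 2 UMIs and 1 UMI in all. The cause was not tested.

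Fewer maturing gonadotrophs were found at lower depth. Thinning to 5000 UMIs before the rule left 148 male (2.18%) and 5 female (0.0922%). A threshold of 3 UMIs gave a male share of 2.52%. The study's filters, which kept more barcodes, gave 270 male (2.59%) and 15 female (0.263%). The share with an *Nr5a1* UMI in the male library was 60.0% as deposited, 27.0% at 5000 and 16.6% at 3000 UMIs.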

Other observations

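Barcodes that met the *Cga* and the *Gnrhr* or *Lhb* criteria but exceeded the limits on *Pou1f1* or the collagens numbered 13 (male) and 2 (female). Their median depths of 25885 and 15260.5 UMIs compare with 14706 and 15779 in the maturing gonadotrophs, and Scrublet marked 4 of the 13 (30.8%). A further 5 male and 3 female barcodes had *Gnrhr* or *Lhb* at 2 UMIs or more with *Cga* under 2000 CPM.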
